A study of Mus musculus with 6 samples.

Results

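Genes of the CPEB proteins and the poly(A) polymerases, with Sympk and Dazl, were described in mouse oocytes grown to full size, cells in meiotic arrest that store maternal mRNA. The 9 genes were chosen by name (Cpeb1, Cpeb2, Cpeb3, Cpeb4, Papola, Papolb, Papolg, Sympk and Dazl) from the 55291 in the count table, and all 9 were found there. Oocytes labelled wild type (WT) were compared with oocytes labelled knockout (KO) in a series on maternal deletion of Pan2, whose product is the nuclease of the PAN2-PAN3 complex, which shortens poly(A) tails. The sources used here do not give the allele, any Cre driver, the strain, the age of the females or the number of oocytes per library. Of 6 labelled samples, WT 1, KO 1, KO 2 and KO 3 were compared, WT 2 is described apart and WT 3 was not analysed here. The labels do not say that replicates came from separate females, and p-values then reflect library-to-library spread that may be technical.

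As background, many oocyte mRNAs are stored with short poly(A) tails and are lengthened in the cytoplasm when meiosis resumes. CPEB1 binds the cytoplasmic polyadenylation element (CPE) in the 3' UTR, holds such mRNAs silent, and after phosphorylation helps a poly(A) polymerase extend the tail. Deadenylases such as PAN2-PAN3 and CCR4-NOT act in the opposite direction. DAZL is a germ-cell RNA-binding protein that promotes translation of stored mRNAs, and symplekin, encoded by Sympk, is a scaffold of the 3' end processing complex that in frog oocytes also joins the cytoplasmic complex.

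Sequence matches to the CPE are shown first, since CPEB mRNAs can carry CPEs themselves. They are given for the most abundant RNA-binding members and for both polymerases with clear counts. Binding at these matches was not tested. The sequences are 30-base windows of the annotated transcript with the longest 3' UTR in GENCODE M21 (mm10), on the transcript strand. Capitals mark the CPE nearest to the annotated 3' end of that transcript, searched as TTTTAT or TTTTAAT.
Cpeb1 CPE, chr7:81347256-81347285, minus strand: ttgacttttctTTTTAATttaacgattact
Dazl CPE, chr17:50279752-50279781, minus strand: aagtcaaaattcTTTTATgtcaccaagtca
Papola CPE, chr12:105838018-105838047, plus strand: ttttaaactaatTTTTATttttaaccagtt
Papolg CPE, chr11:23862857-23862886, minus strand: gacctttgtagtTTTTATttaactatatga

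In these annotated transcripts the last CPE ended 242 bases before the 3' end in Cpeb1, 369 in Dazl, 772 in Papola and 223 in Papolg. A CPE was present somewhere in the 3' UTR of 8 of the 9 genes, all but Sympk, whose 3' UTR was 100 bases long. Among 13388 coding genes that were tested, 61.8% held one. The 3' UTRs of the 9 genes had a median length of 1947 bases and those of the tested genes 1098.5 bases, and longer sequence holds more matches. Per kilobase of 3' UTR, the median number of matches was 3.04 in the 9 genes and 0.843 in the tested genes. Cpeb2 had 24 matches, Cpeb4 17, Papola 7, Cpeb3 and Dazl 6 each, Papolb 5, Cpeb1 4 and Papolg 2. A polyadenylation hexamer (AATAAA or ATTAAA), the signal that recruits the cleavage and polyadenylation factor CPSF, lay in the last 40 bases in 7 of the 9, not in Papola or Papolg. None of the 9 had a CPE within 100 bases before such a hexamer, compared with 13.9% of the tested genes. The Papola transcript searched stopped short of the annotated gene end, so its 772 bases and missing hexamer hold for that transcript only. Which 3' end oocytes use was not measured here, and a match is only a match of letters.

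Total counts were 12038990 to 26770521 in the 4 libraries compared and 3785574 in WT 2. WT 2 did not follow the other libraries: across genes, log2(CPM + 1) correlated with theirs at -0.164 to -0.149, while they correlated with one another at 0.957 to 0.992. It had 0 counts at 7 of the 9 genes and at 9 of 10 oocyte markers, so all values below are from WT 1 and the KO libraries. The oocyte markers (among them Gdf9, Bmp15 and Zp3) summed to 20180 to 23663 CPM in those 4 libraries. Granulosa and cumulus markers summed to 64.5 CPM in WT 1 and 85.7 to 101 CPM in the KO libraries, with none of the 12 at 0 in all 4. Theca, stromal and endothelial markers summed to 16.6 and 28.5 to 29.6 CPM, with 3 of 8 (Col1a2, Col3a1 and Cdh5) at 0, and blood markers to 1.38 and 1.53 to 5.14 CPM, with the 4 globin genes at 0. Their part in the results was not tested, and in such bulk libraries fewer cells of a type cannot be told apart from less RNA per cell. Pan2 itself was at 77.6 CPM in WT 1 and lower in each KO library, at 44.6 CPM in the first, 11.9 in the second and 34.0 in the third (edgeR adjusted p = 0.301). The deleted part is not stated in the labels, so counts over the whole gene cannot show how much of it is lost.

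Cpeb1 and Dazl were by far the most abundant of the 9 genes. On the scale of CPM per kilobase of exon (depth-scaled counts, with TMM factors), which allows genes of different length to be compared, Cpeb1 lay between 156 and 194 and Dazl between 162 and 202 over the 4 libraries. Their ranges overlapped, and the ratio of Cpeb1 to Dazl was 0.966 in WT 1, against 1.02 ± 0.079 (SD, n = 3) in the KO group. Papola followed at 26.0 to 27.6 and Papolg at 13.9 to 22.5, without overlap. Cpeb3, at 3.88 to 8.32, and Cpeb4, at 3.93 to 5.51, overlapped and held no fixed order. Sympk stood at 1.59 to 2.75 and Cpeb2 at 0.464 to 0.636. By this measure Cpeb1 lay at the percentile 97.6 to 98.2 of the tested genes in each library and Dazl at 97.7 to 98.3, whereas Cpeb2 lay at 23.4 to 28.9.

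**Figure D1:**
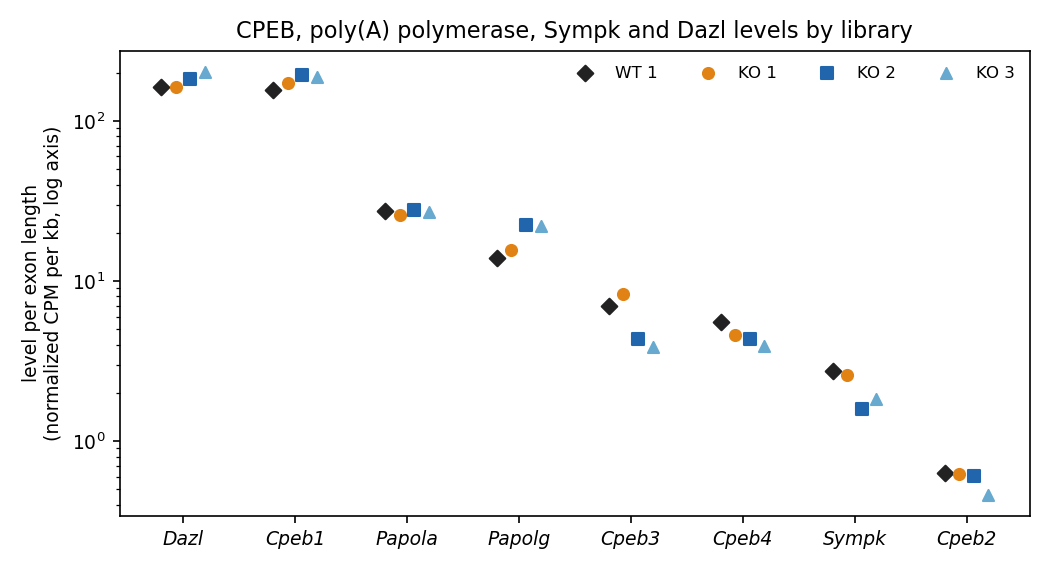
Levels of 8 genes in WT 1 and the 3 KO libraries, as TMM-normalized CPM per kilobase of exon on a log axis; each point is 1 library. Cpeb1 and Dazl sit between 156 and 202, Cpeb2 between 0.464 and 0.636, and Papolb, at 0 counts in 3 of the 4 libraries, is not drawn.

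None of the CPEB genes, polymerase genes, Sympk or Dazl passed the test between KO and WT 1. Of the 9, 8 had enough counts to be tested, and 0 passed an adjusted p of 0.05 in edgeR's quasi-likelihood test, 0 had an unadjusted p under 0.05, and 0 passed in DESeq2 or limma-voom. Over all 17799 genes tested, 1.93% passed in edgeR (1.32% higher and 0.612% lower in KO), 3.87% in DESeq2 and 1.3% in limma-voom, so a count of 0 among 8 is near the background. An unadjusted p under 0.05 was seen for 13.3% of all genes tested in edgeR. WT 1 lay above all KO libraries for 3 of the 8 (Cpeb2, Cpeb4 and Sympk) and below all of them for 3 (Cpeb1, Papolg and Dazl). Over all genes tested these shares were 29.2% and 29.1%. The median log2 fold change (KO over WT 1) of the 8 was -0.098, ranging from -0.46 to 0.54, and that of all genes tested was 0.021. WT 1 is a lone library and is assumed in the fit to vary like the KO libraries.

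**Figure D2:**
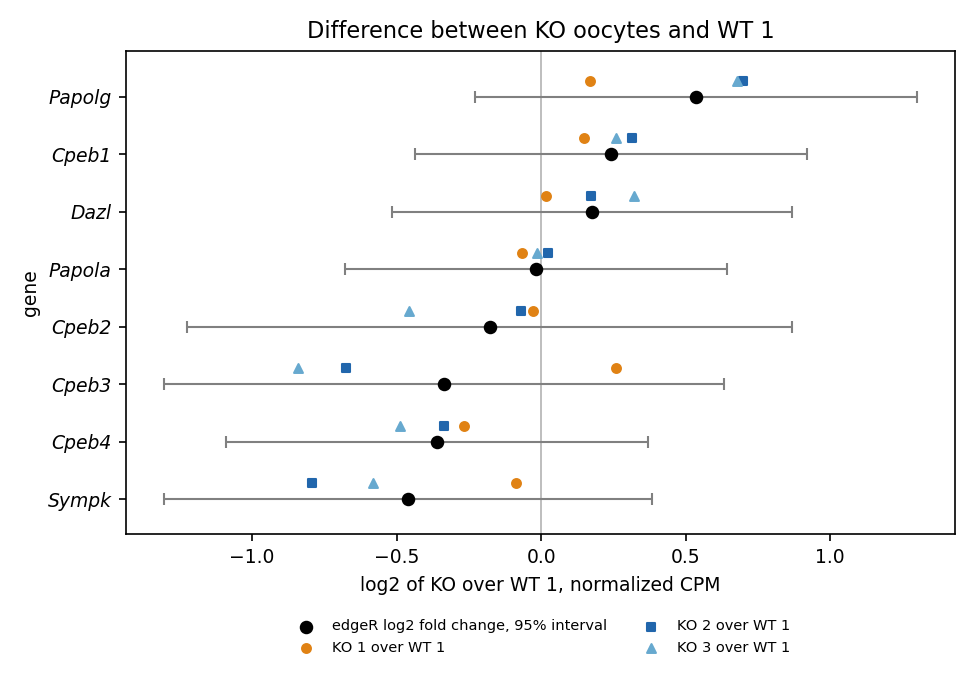
Differences between KO oocytes and WT 1 for the 8 tested genes on the log2 scale of normalized CPM; black points and bars are the edgeR estimate with its 95% interval, coloured points are single KO libraries over WT 1. All 8 intervals include 0, and KO 1 stands apart from KO 2 and KO 3 for Cpeb3, Sympk and Papolg.

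Cpeb1, the CPE-binding regulator of maternal mRNA translation (ENSMUSG00000025586.17, chromosome 7, 81347026 to 81455465, minus strand), had 655 CPM in WT 1 and 725, 814 and 784 CPM in KO libraries 1, 2 and 3. All 3 KO libraries lay above WT 1, by 1.11- to 1.24-fold. The KO mean was 774 ± 45.1 CPM (SD, n = 3). On the log2 scale the difference was 0.24 with an SE of 0.31, and edgeR's adjusted p was 0.786. The 95% interval of the fold, 0.739 to 1.89, leaves room for a modest difference either way. Among the KO libraries its coefficient of variation was 5.82%, compared with a median of 18.7% over 8304 genes at 10 CPM or more.

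Cpeb4, which in frog oocytes takes over from CPEB1 late in meiosis (ENSMUSG00000020300.14, chromosome 11, 31872211 to 31935634, plus strand), had 35.1 CPM in WT 1 and 29.2, 27.8 and 25.1 CPM in the KO libraries. The groups did not overlap, and the KO libraries lay close together. The KO mean was 27.4 ± 2.09 CPM (SD, n = 3), a log2 difference of -0.36 with an SE of 0.33 and an adjusted p of 0.697 in edgeR.

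Cpeb3 and Cpeb2 belong with Cpeb4 to the second branch of the family, best known for control of translation in neurons. Cpeb3 (ENSMUSG00000039652.16, chromosome 19, 37021291 to 37208601, minus strand) had 51.5 CPM in WT 1 and 61.7, 32.3 and 28.8 CPM in KO libraries 1, 2 and 3. KO 1 was the highest of all 4 libraries while KO 2 and KO 3 were the lowest, so the groups overlapped. Its log2 difference of -0.34, with an SE of 0.44, did not pass (edgeR adjusted p = 0.792). Its coefficient of variation in KO oocytes, 44.2%, was at the percentile 93.9 of genes at 10 CPM or more. Cpeb2 (ENSMUSG00000039782.14, chromosome 5, 43233170 to 43289724, plus strand) rested on 60 to 119 counts per library, or 4.97 CPM in WT 1 and 4.87, 4.74 and 3.63 CPM in the KO libraries. WT 1 was highest by a small margin over KO 1 and KO 2, and the log2 difference was -0.18 with an SE of 0.47 (edgeR adjusted p = 0.91).

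Within the CPEB family, Cpeb1 made up 92.3% of the summed level per kilobase in WT 1 and 92.7, 95.4 and 95.8% in KO libraries 1, 2 and 3. Cpeb3 took 4.11% in WT 1 and 4.46, 2.14 and 1.99% in the KO libraries, and Cpeb4 3.26% and 2.45, 2.15 and 2.01%. Cpeb2 stayed at or below 0.376%. Per kilobase, Cpeb1 was 28.3 times Cpeb4 in WT 1, against 43.2 ± 4.97 times (SD, n = 3) in the KO group. These ratios have no test of their own: an exact permutation test of 1 library against 3 cannot give a p below 0.25.

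**Figure D3:**
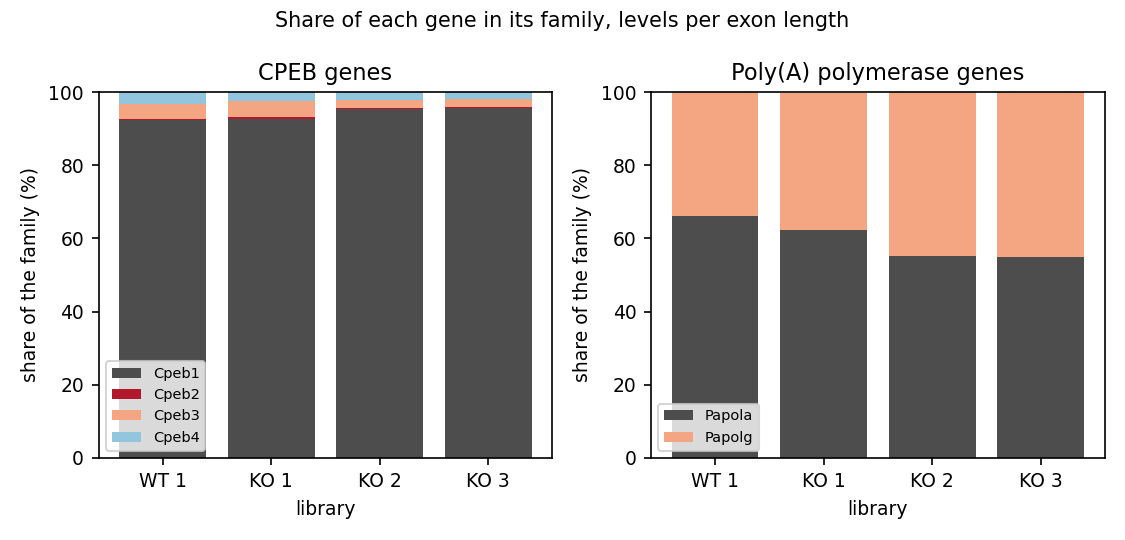
Share of each gene in the summed level of its family, in percent, from TMM-normalized CPM per kilobase of exon in each library. Cpeb1 takes 92.3 to 95.8% of the CPEB family, and Papola takes 66.2% of the polymerase family in WT 1 and 54.9 to 62.4% in the KO libraries; Papolb, at most 0.184%, is not drawn.

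Papola, the canonical nuclear poly(A) polymerase that adds tails at 3' end formation (ENSMUSG00000021111.15, chromosome 12, 105784694 to 105838944, plus strand), had 179 CPM in WT 1 and 171, 182 and 178 CPM in the KO libraries. WT 1 lay within the KO range, and the KO coefficient of variation was 3.09%. Of genes at 10 CPM or more, 2.43% varied as little or less. The same percentile was 7.82 for Cpeb1, 12.4 for Cpeb4, 22.3 for Dazl, 51.9 for Papolg and 69.8 for Sympk. The log2 difference was -0.018 with an SE of 0.30 (edgeR adjusted p = 0.987) and a 95% interval of the fold from 0.625 to 1.56.

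Papolg, a second nuclear poly(A) polymerase (ENSMUSG00000020273.13, chromosome 11, 23862646 to 23895253, minus strand), had 76.1 CPM in WT 1 and 85.7, 124 and 122 CPM in KO libraries 1, 2 and 3. All KO libraries lay above WT 1, KO 1 by 1.13-fold and KO 2 and KO 3 by 1.62- and 1.60-fold. The log2 difference of 0.54, with an SE of 0.34, was the highest of the 8 genes and did not pass (edgeR adjusted p = 0.555). Per kilobase, Papola was 1.96 times Papolg in WT 1 and 1.67, 1.23 and 1.22 times in the KO libraries, so Papola was the higher of the pair in all 4.

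Papolb, an intronless gene whose product is known as a testis-specific cytoplasmic poly(A) polymerase (ENSMUSG00000074817.2, chromosome 5, 142525838 to 142530076, minus strand), had 0 counts in WT 1, KO 2 and KO 3 and 4 counts in KO 1. A count of 0 allows up to 0.125 CPM in WT 1, 0.134 in KO 2 and 0.112 in KO 3, and the 4 counts of KO 1 came to 0.325 CPM. These floors cover counting error only. Markers of testis germ cells summed to 13.5 CPM in WT 1 and 33.1, 22.6 and 19.0 CPM in the KO libraries, with 1 of 6 (Tnp1) at 0. Papolb was too low to be tested.

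Sympk (ENSMUSG00000023118.15, chromosome 7, 19024377 to 19054618, plus strand) had 29 CPM in WT 1 and 27.3, 16.7 and 19.3 CPM in KO libraries 1, 2 and 3. WT 1 was highest, with KO 1 close to it and KO 2 and KO 3 lower. The log2 difference, the lowest of the 8, was -0.46 with an SE of 0.38 (edgeR adjusted p = 0.664).

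Dazl (ENSMUSG00000010592.9, chromosome 17, 50279395 to 50293636, minus strand) had 618 CPM in WT 1 and 624, 696 and 772 CPM in the KO libraries. KO 1 was almost level with WT 1, and KO 2 and KO 3 were 1.13- and 1.25-fold higher than WT 1. The KO mean was 697 ± 73.8 CPM (SD, n = 3) and the log2 difference 0.18 with an SE of 0.31 (edgeR adjusted p = 0.855).

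For 7 of the 8 tested genes, all but Papola, KO 1 lay closer to WT 1 than KO 2 and KO 3 did. Over all genes tested this held for 45.6%. The 8 genes share their libraries and are not independent replicates of this pattern. Without KO 1, 3 genes passed in edgeR, Papolg higher (log2 fold change 0.69, adjusted p = 0.00241) and Cpeb3 (-0.75, adjusted p = 0.00385) and Sympk (-0.68, adjusted p = 0.0301) lower. In that fit 28.1% of all 17498 genes passed (15.4% higher and 12.7% lower in KO), so 3 of 8 is near the background. The spread then came from KO 2 and KO 3 alone, the pair of libraries with the highest correlation, 0.992. The ribosomal RNA gene CT010467.1 was split in the same way. It took 2.47% of WT 1, 1.49% of KO 1, 0.554% of KO 2 and 0.565% of KO 3. KO 1 also had the lowest total of the libraries compared, 12038990 counts. Among the KO libraries it held the most Pan2, 44.6 CPM, compared with 11.9 in KO 2 and 34.0 in KO 3. None of these was tested for a part in the result.

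Profiles were compared by the root mean square difference of log2(CPM + 0.5), centred on each gene, over WT 1 and the 3 KO libraries. Among the 21 pairs of the 7 genes with a mean of at least 10 CPM, the closest was Cpeb1 and Dazl, at 0.087, and the most distant was Cpeb3 and Papolg, at 0.74. Of 7672 other genes with a mean of at least 10 CPM, Zdhhc3 and Lyar were closest to Cpeb1, at 0.011 and 0.017. Pole3 and Sorbs2 were closest to Papola, at 0.0085 and 0.014, and Rogdi and Sgo1 to Dazl, at 0.011 and 0.014. With 4 libraries and so many genes, close profiles are common, and these are given as a description.

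Next came a list of factors that cleave pre-mRNA and start tail synthesis, which also held the poly(A)-binding protein genes Pabpn1 and Pabpn1l. Of 20 cleavage and polyadenylation genes, 0 rose and 0 fell in edgeR, 2 had an unadjusted p under 0.05 (13.3% of all genes did), and 0 passed in DESeq2 or limma-voom. Their log2 fold changes had a median of -0.31 and 6 of 20 were above 0, compared with 9129 of 17799 over all genes. Pabpn1l, an oocyte and embryo poly(A)-binding protein gene, had the lowest p, at 615 CPM in WT 1 and 409, 349 and 335 CPM in the KO libraries (log2 difference -0.75, SE 0.30, edgeR adjusted p = 0.301). WT 1 lay above all 3. Leaving out KO 1 gave Pabpn1l a log2 difference of -0.84. Cpsf4l, a paralogue of the hexamer-binding CPSF subunit gene Cpsf4, had the highest mean CPM of the list, a measure not corrected for gene length, at 1374 CPM in WT 1 and 1019, 1247 and 1077 CPM in the KO libraries (adjusted p = 0.727).

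Non-canonical poly(A) and terminal uridyl polymerases had log2 fold changes with a median of -0.00092. Of 11 genes, 10 were tested, and 0 passed in edgeR, DESeq2 or limma-voom, with 0 unadjusted p under 0.05 in edgeR, compared with 13.3% of all genes. Without KO 1, 4 of the 10 passed in edgeR (Tent4b, Tent4a, Tent2 and Mtpap), 2 higher and 2 lower. In that fit 28.1% of all genes passed. Tent2, which encodes GLD2, the polymerase named with CPEB1 in frog oocytes, had 39.6 CPM in WT 1 and 44.1, 61.1 and 57.9 CPM in the KO libraries (edgeR adjusted p = 0.621); it was chosen for its role after its values were seen. The gene with the lowest p was Tent5d, a rare transcript at 0.669 CPM in WT 1 and 1.3, 2.41 and 1.38 CPM in the KO libraries (log2 fold change 1.35, SE 0.74, adjusted p = 0.477). Tent5c, another member of the TENT5 family of poly(A) polymerases, had the highest mean CPM of the list, at 1134 CPM in WT 1 and 1189, 891 and 848 CPM in the KO libraries (adjusted p = 0.823).

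Kinases and partners of CPEB in stored mRNPs had log2 fold changes with a median of 0.094. Of these, 15 of 26 were above 0, compared with 9129 of 17799 over all genes. None passed in edgeR, DESeq2 or limma-voom, and 1 had an unadjusted p under 0.05 in edgeR, compared with 13.3% of all genes. That gene was Pabpc1, the cytoplasmic poly(A)-binding protein gene of somatic cells, at 30.8 CPM in WT 1 and 21.6, 10.2 and 14.4 CPM in the KO libraries (log2 fold change -1.01, SE 0.42, adjusted p = 0.342). It passed in edgeR without KO 1 (adjusted p = 8.46e-06). In that fit 13 of the 25 partners tested passed, 6 higher and 7 lower, compared with 28.1% of all genes. Zar1, an oocyte RNA-binding protein gene of mRNA storage, had the highest mean CPM of the list over the 4 libraries, though not in each of them, at 1450 CPM in WT 1 and 1202, 1388 and 1519 CPM in the KO libraries, and WT 1 lay within the KO range (adjusted p = 0.939).

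mRNAs reported to be translated through CPEs or DAZL in oocytes had log2 fold changes with a median of 0.33. Of these, 10 of 11 were above 0, compared with 9129 of 17799 over all genes. The cDNA was primed with oligo(dT), so tail length can affect capture, and its part was not tested. In edgeR 0 passed and 1 had an unadjusted p under 0.05 (13.3% of all genes did); limma-voom called 0 and DESeq2 called 1. That gene was Plat, the tissue plasminogen activator gene, at 619 CPM in WT 1 and 1024, 2251 and 1947 CPM in the KO libraries (log2 fold change 1.49, SE 0.46, edgeR adjusted p = 0.176). All 3 KO libraries lay above WT 1. Plat also passed when low counts were not filtered out, where 3.07% of all genes passed. When KO 1 was left out, 7 of the 11 passed, 6 higher and 1 lower, in a fit in which 28.1% of all genes passed (15.4% higher and 12.7% lower). By library, the median over the 11 genes was -0.098 for KO 1 over WT 1, 0.57 for KO 2 and 0.36 for KO 3. H1f8, the oocyte linker histone gene, had the highest mean CPM of the list, at 6022 CPM in WT 1 and 5627, 7278 and 6278 CPM in the KO libraries (edgeR adjusted p = 0.938).

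**Figure D4:**
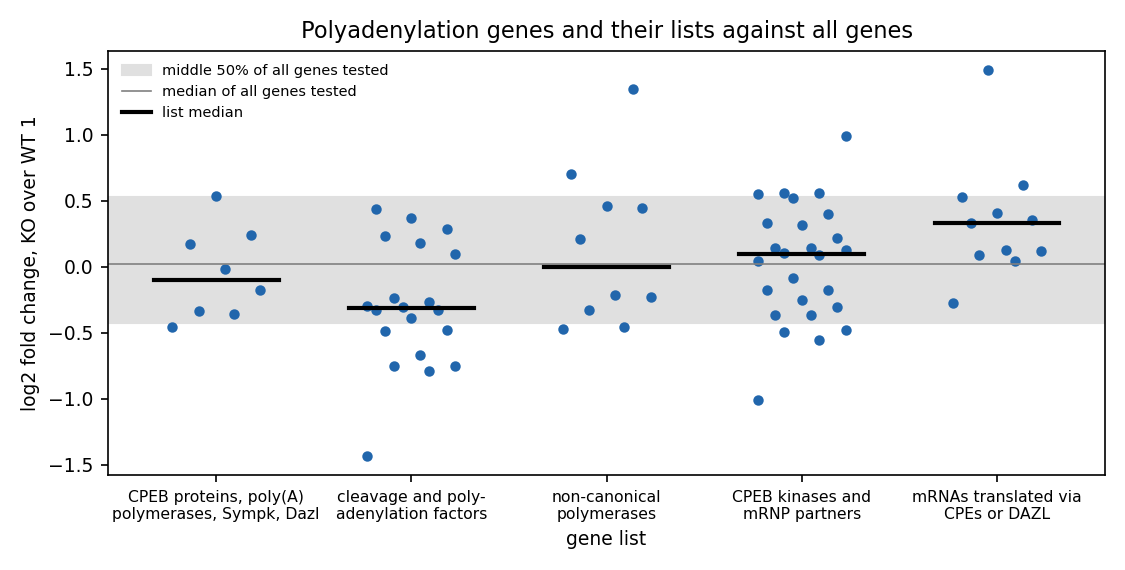
Log2 fold changes (KO over WT 1) of the tested genes of each list; points are genes, black lines list medians, and the grey band holds the middle 50% of all 17799 genes tested, from -0.43 to 0.53. All 5 list medians, from -0.31 to 0.33, lie inside the band. The band describes single genes, and list medians vary less, so lying inside it is not a test of the lists.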

How the data were processed

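Smart-seq2 cDNA primed with oligo(dT) was sequenced, per the labels' protocols, so tail length can affect capture. Trim Galore 0.6.7, STAR 2.7.10a and featureCounts 2.0.2 on mm10, and DESeq2 without a version, are named in the submitters' processing notes, and no annotation release or strand setting was stated in the labels used. Per the file headers, the authors deposited raw counts of each gene, with exon lengths in bases. All 5 columns matched a labelled sample by name.

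Genes were tested in R 4.3.3 with the robust quasi-likelihood test of edgeR 4.0.16 after filterByExpr and TMM scaling, at a Benjamini-Hochberg adjusted p of 0.05 across the whole table. limma 3.58.1 (voom), DESeq2 1.42.0 and other alternatives are in the closing section. The steps were also run on counts simulated from the means and spread of this fit. Such counts give WT 1 the spread of the KO libraries, so they cannot check whether it varies like them. WT 2 was left out because its column does not follow the gene models. No pair of the libraries compared agreed within sampling noise: the chi-square per degree of freedom was at least 19.4. CPM uses TMM factors; 1 count was 0.0374 to 0.0831 CPM of the totals.

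Members and lists were chosen with earlier results of these data known. Named list genes were those that passed, otherwise that with the lowest p, and that with the highest mean CPM. Small exon overlaps with antisense genes (91 to 137 bases) exist for Cpeb2, Cpeb3 and Papolg, whose reads cannot be told apart without strand. CPEs and hexamers were searched in GENCODE M21 with Python 3.11.15, and figures drawn with matplotlib 3.10.9.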

Additional observations from a re-analysis of the deposited data

Results flagged for a closer look

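WT 2, which was left out of the comparison, held counts above 3 at 2 of the 9 genes, 76 counts at Cpeb3 and 4 counts at Papolb. The other 7, Cpeb1 and Dazl among them, had 0 counts there. Since WT 2 did not follow the other libraries, the source of these reads cannot be assigned to either gene.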

How the results depend on the processing

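With both WT libraries, 0 of 16738 genes passed in edgeR (1050 at an unadjusted p under 0.05), and 0 with the replicate number as a block (1 at an unadjusted p under 0.05). Same-numbered deviations correlated at -0.0071 and -0.045, but the deviations of 2 WT libraries mirror each other and rest on WT 2, so whether the numbers pair the samples was not tested. In these fits, in which most of these genes had few or no counts in WT 2, log2 fold changes turned: without the block to 0.78 for Cpeb2, 0.26 for Cpeb3, 0.64 for Cpeb4, 0.98 for Papola, 0.54 for Sympk, 0.25 for Pabpn1l, 0.70 for Cpsf4l, 0.78 for Tent5c and 0.92 for Zar1. With the replicate block they were 2.67, 0.60, 3.89, 5.44, 3.62, 5.65, 6.62, 4.48 and 6.78, and 1.08 for Pabpc1. List medians moved to 0.58, 0.55, 0.79 and 1.33 (cleavage factors, non-canonical polymerases, CPEB partners, translated mRNAs), and with the block to 2.41, 1.40, 1.93 and 5.94. The median of all genes moved to 0.68 and 1.97.

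With WT 2 left out, 0 of the 9 genes passed in any alternative other than the one without KO 1. Genes called numbered 868 without a filter, 126 at a mean of at least 5 CPM and 688 in DESeq2, compared with 344. Plat was the 1 translated mRNA called without a filter and in DESeq2. Papola had a log2 fold change of 0.011 when counts were thinned. The CPEB partners' median was 0.057 with library size alone, 0.082 with upper-quartile factors, 0.033 at 5 CPM, 0.045 in limma-voom and 0.049 thinned; that of the non-canonical polymerases was 0.22 without a filter and 0.17 thinned. Leaving out each KO library in turn gave 425 to 4923 genes and 0 to 3 of the 9. It gave 0 to 4 of 20 cleavage factors and 0 to 4 of 10 non-canonical polymerases. For CPEB partners it gave 0 to 13 of 25 (median 0.0022 to 0.062), and for translated mRNAs 0 to 7 of 11. Each count was the highest without KO 1, where 28.1% of all genes passed. Log2 fold changes ran from -0.044 to 0.011 for Papola, -0.16 to 0.0093 for Zar1 and -0.021 to 0.18 for H1f8. The causes were not tested. Leaving out WT 1 could not be fitted, since no other WT library was used.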
